A study of Homo sapiens with 12 samples.

Results

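The 9 cyclins described here are CCND1, CCND2, CCND3, CCNE1, CCNE2, CCNA2, CCNB1, CCNB2 and CCNF. They were taken by gene symbol from a deposited table of 63086 genes, in which each symbol had 1 row. No measured value entered the rule, but the 9 members were chosen with earlier results of these data known. The shares of all tested genes printed beside counts of called members are therefore a reference and not a test. All 9 reached the mean normalised count of 10 over the 12 libraries that was required for testing, as did 15987 genes in all. CCND2 was the lowest of them, and most of its reads came from the CRISPR Control line.

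RNA was sequenced from MIA PaCa-2, an established human pancreatic carcinoma cell line, in 4 derivatives with 3 biological replicates each. The WT line was not edited. CRISPR Control had been exposed to the nuclease Cas9 and a guide RNA, which cut DNA at a chosen sequence, and carried a silent point mutation that leaves the protein sequence of TIMP-1 as it was. TIMP1 KO 1 and TIMP1 KO 2 were knockout clones made with guides against different regions of exon 4 of TIMP1, which encodes TIMP-1, a secreted protein that inhibits matrix metalloproteinases and also acts as a signalling molecule. All 4 lines were grown in RPMI medium with fetal calf serum and harvested at 70% confluency. The study used the lines to test whether TIMP-1 is causal for suppression of natural killer cells by pancreatic cancer cells. It sequenced their RNA to find transcripts that depend on TIMP-1 apart from the editing procedure. By Sanger sequencing it reports frame-shift mutations in both clones. Here each knockout clone was compared with WT and with CRISPR Control. Each line is a single population or clone: differences between clones of the parent line and effects of losing TIMP-1 cannot be told apart from 1 line alone, and the p-values below measure the spread between cultures of a line. TIMP-1 protein was not measured in these files.

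Cyclins are the regulatory subunits of the cyclin-dependent kinases (CDKs), which are inactive without them. D-type cyclins bind CDK4 and CDK6 in G1 and answer to growth signals, E-type cyclins bind CDK2 and drive the entry into S phase, cyclin A2 acts with CDK2 in S phase and with CDK1 in G2, and B-type cyclins with CDK1 start mitosis. Cyclin F binds no CDK and is the substrate receptor of a ubiquitin ligase. Most of these transcripts and proteins rise and fall within each cycle, so that in RNA from an unsynchronised culture fewer cells in a phase and less RNA per cell in that phase cannot be told apart.

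The libraries held 26908701 to 36093563 reads in genes, and the reads behind each cyclin other than CCND2 were at least 952 summed over the 3 libraries of a line. TIMP1 itself averaged 3553 ± 274 normalised counts in WT (SD, n = 3 here and for every line below), 2690 ± 357 in CRISPR Control, 1600 ± 32.8 in TIMP1 KO 1 and 1161 ± 28.8 in TIMP1 KO 2, where a normalised count is a read count divided by the size factor of its library. All 6 knockout libraries were below all 6 libraries of the other lines, and the clones kept 45.0% and 32.7% of the WT mean. The epithelial markers KRT7, KRT8, KRT18, KRT19, EPCAM and CDH1 were all above the minimum of 10 in each line, although their summed level ranged from 56587 to 72786 in CRISPR Control and from 174305 to 223516 in the other lines. CDH1, the adhesion protein E-cadherin, averaged 1189 in WT, 1424 in CRISPR Control, 128 in TIMP1 KO 1 and 84.9 in TIMP1 KO 2. In the same order KRT7 averaged 91.5, 112, 121 and 191, and KRT19 15707, 4583, 24591 and 52497. Both were higher in each clone than in WT. KRT8 averaged 129995, 39963, 135667 and 96385, KRT18 54161, 16912, 55794 and 35097, and EPCAM 1890, 1875, 2036 and 1299. The mesenchymal markers VIM, ZEB1 and TGFBI summed to 52914 to 76780 in WT and CRISPR Control and 84007 to 108891 in the clones. In the same order of lines VIM averaged 70742, 58625, 93176 and 72716, and TGFBI 3005, 782, 12546 and 12662. ZEB1 averaged 1226, 954, 1288 and 1258. The 3 markers thus did not move alike, and VIM in TIMP1 KO 2 was near its WT level. Of the 4 fibroblast markers, DCN (at most 1.55) and LUM were near 0, while PDGFRB and COL1A1 passed the minimum. The sum of the 4 ran from 7700 to 11899 in WT and CRISPR Control and from 28902 to 64825 in the clones. Nearly all of that sum was COL1A1, at 11490, 8868, 56612 and 33836 in the same order of lines. PDGFRB averaged 14.0, 53.7, 32.7 and 48.2, and was highest in CRISPR Control. The leukocyte marker PTPRC had a mean of at most 5.17 in any line. Only CD14 of the 5 leukocyte markers passed the minimum, and 0 of the 3 acinar markers did. The endothelial markers PECAM1, VWF and CDH5 averaged at most 13.1, 11.2 and 7.72 in any line. The part of these levels in the results below was not tested.

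In both knockout clones against WT most called cyclins were lower, and CCNE1, CCNE2 and CCNF fell in each. In TIMP1 KO 1, CCND3 and the barely expressed CCND2 fell as well, while the cyclins of S phase and mitosis (CCNA2, CCNB1 and CCNB2) lay within 0.12 of WT on the log2 scale. In TIMP1 KO 2 these last 3 fell, to 50% of the WT mean for CCNA2, 62.8% for CCNB1 and 47.9% for CCNB2, and CCNF fell to 45.6%. CCND1 passed the test in neither clone against WT, and CCND2 rose in TIMP1 KO 2.

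Differences were called with limma, a linear model fitted to all tested genes on log2(normalised count + 1), at a Benjamini-Hochberg adjusted p under 0.05. Every log2 fold change below is on that scale. In TIMP1 KO 1 against WT, 5 of the 9 cyclins were lower and 0 higher, where 17.5% of all tested genes were called lower and 18% higher. In TIMP1 KO 2 against WT, 6 were lower and 1 was higher, beside 27.9% and 27.1% of all genes. CCND2 was among the 5 lower in TIMP1 KO 1, with means of 1.54 there and 7.63 in WT, both under the minimum of 10. It was tested because of its reads in the other lines, and was also the 1 higher in TIMP1 KO 2. The median log2 fold change over the 9 was -0.40 and -0.67 in these comparisons, and that over all tested genes was 0.00 and -0.01. Both comparisons used the same WT libraries. With libraries scaled to equal totals, the calls over all genes in TIMP1 KO 2 against WT were 5245 higher and 3500 lower in place of 4330 and 4461, and each of these cyclin calls kept its direction.

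**Figure D1:**
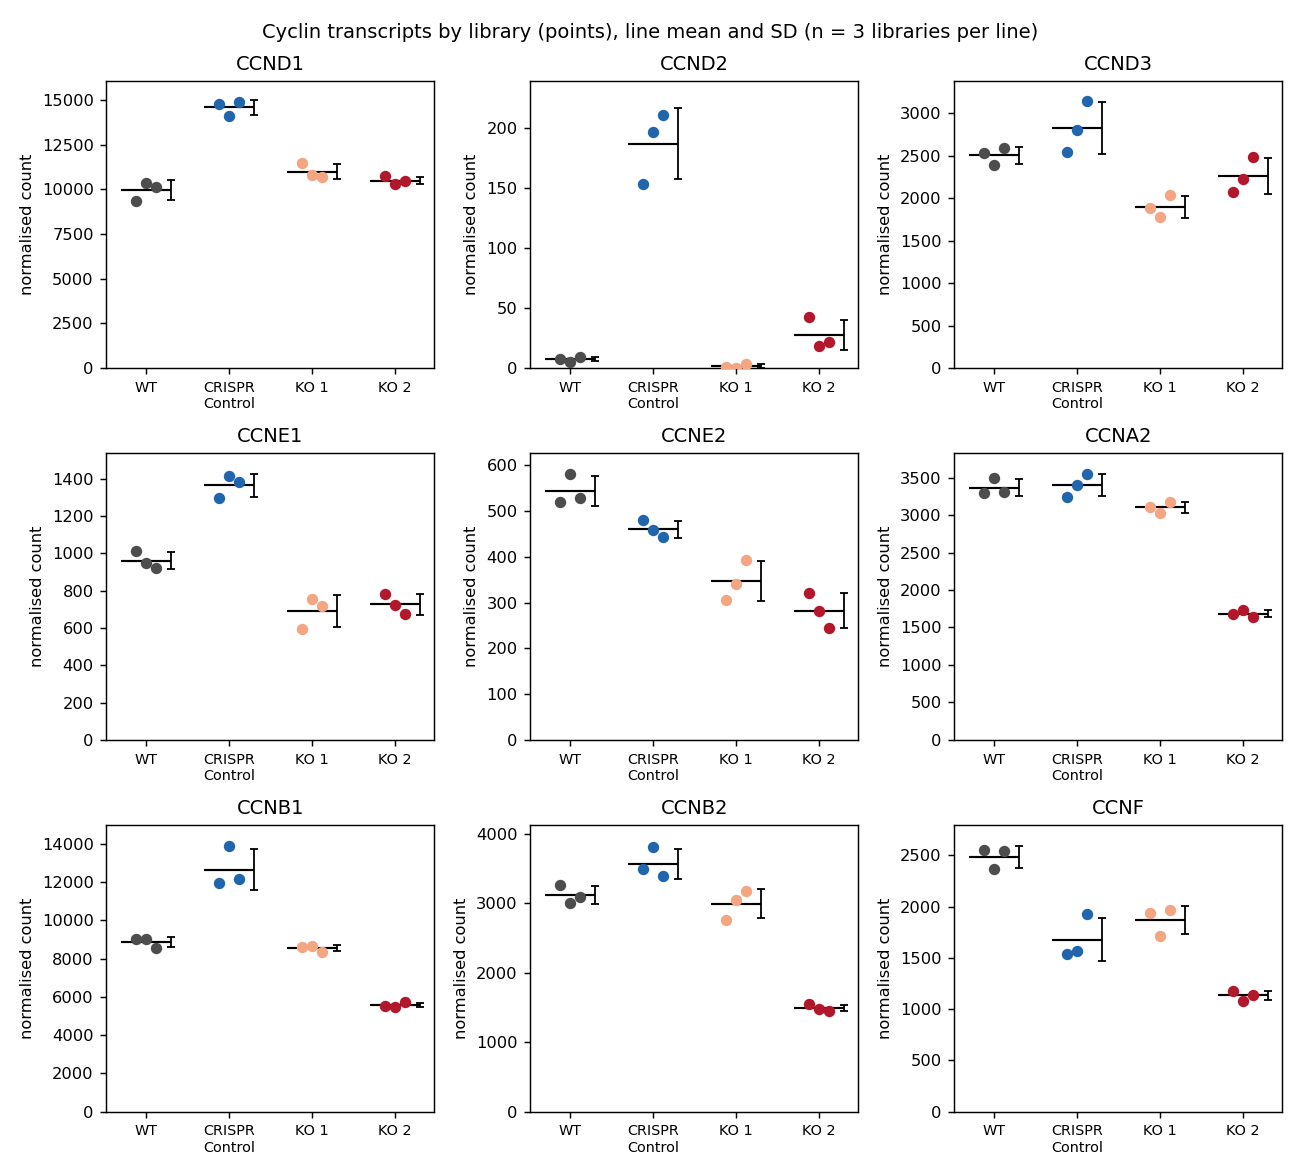
Normalised counts of the 9 cyclins in the 12 libraries, 1 panel per gene with its own linear axis from 0; points are libraries, lines the mean of 3 libraries and bars the SD. The 3 libraries of TIMP1 KO 2 sit apart below all others for CCNA2, CCNB1, CCNB2 and CCNF, and those of CRISPR Control sit above all others for CCND1, CCND2, CCNE1, CCNB1 and CCNB2.

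Among the D-type cyclins, CCND1 (ENSG00000110092.4, chr11:69641156-69654474, plus strand, 5 exons) encodes cyclin D1, the main activator of CDK4 and CDK6 in epithelial cells. Its normalised counts were 9327, 10374 and 10124 in WT, 14771, 14117 and 14878 in CRISPR Control, 11466, 10780 and 10680 in TIMP1 KO 1, and 10717, 10309 and 10438 in TIMP1 KO 2. CRISPR Control was the line that stood out, with all its libraries above the other 9, and the remaining lines overlapped from neighbour to neighbour. The log2 fold change of CRISPR Control against WT was 0.55 (SE 0.06, limma adjusted p = 9.07e-07). Against WT the values were 0.14 in TIMP1 KO 1 (95% interval 0.01 to 0.28, adjusted p = 0.0935) and 0.08 in TIMP1 KO 2 (-0.06 to 0.21, adjusted p = 0.318). Against CRISPR Control, CCND1 fell in both clones, by 0.41 in TIMP1 KO 1 (adjusted p = 2.03e-05) and by 0.48 in TIMP1 KO 2 (adjusted p = 2.94e-06). An annotated gene on the opposite strand, LTO1, shares exon sequence with CCND1 and averaged 660 to 1074 normalised counts per line. The strand setting of the counting is not given, so reads of the shared stretch cannot be assigned between them.

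CCND2 (ENSG00000118971.9, chr12:4269771-4305353, plus strand, 5 exons) encodes cyclin D2, a second partner of the same kinases that many epithelial lines barely express. It had 7, 6 and 10 reads in the WT libraries, 178, 166 and 192 in CRISPR Control, 1, 0 and 4 in TIMP1 KO 1, and 51, 21 and 22 in TIMP1 KO 2. The 4 lines did not overlap, in the order CRISPR Control, TIMP1 KO 2, WT and TIMP1 KO 1, and the knockout clones lay on opposite sides of WT. As normalised counts these were means of 187 ± 29.8, 27.6 ± 12.8, 7.63 ± 2.05 and 1.54 ± 1.81 in that order. From the summed reads, CRISPR Control was 24.3-fold above WT (95% exact interval 16.0 to 38.6), TIMP1 KO 2 was 3.71-fold above WT (2.33 to 6.14), and TIMP1 KO 1 was at 0.224 of WT (0.0665 to 0.602). Intervals on reads cover counting error only, and a library at 0 reads allows up to 3. The limma log2 fold changes against WT were 4.46 (SE 0.45, adjusted p = 1.39e-07) in CRISPR Control, 1.67 (adjusted p = 0.00433) in TIMP1 KO 2 and -2.0 (adjusted p = 0.00189) in TIMP1 KO 1. All 3 depend on the pseudocount: with 10 in place of 1 they were 3.48, 1.048 and -0.62, each still past the threshold. Its antisense transcript CCND2-AS1 averaged at most 1.10.

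CCND3 (ENSG00000112576.13, chr6:41934934-42050357, minus strand, 5 exons in the main transcript) encodes cyclin D3, the member of the class best known from lymphoid cells. The libraries gave 2529, 2392 and 2593 in WT, 2540, 2803 and 3148 in CRISPR Control, 1883, 1773 and 2038 in TIMP1 KO 1 and 2067, 2229 and 2490 in TIMP1 KO 2. TIMP1 KO 1 was the low line and lay below all the others without overlap, while WT overlapped both CRISPR Control and TIMP1 KO 2. CCND3 fell by 0.40 in TIMP1 KO 1 against WT (adjusted p = 0.00154), and was at -0.15 in TIMP1 KO 2 (95% interval -0.34 to 0.04, adjusted p = 0.159). The direct comparison of the clones gave 0.25 higher in TIMP1 KO 2 (adjusted p = 0.0314), a call that was lost without TIMP1 KO 1 replicate 1 or 2 or TIMP1 KO 2 replicate 2 or 3, at adjusted p from 0.0668 to 0.155, and without the filter on low genes (0.0583).

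The E-type cyclins, which carry the cell into DNA replication, were the members that fell in both clones against both comparison lines. CCNE1 (ENSG00000105173.14, chr19:29811991-29824312, plus strand, 12 exons) encodes cyclin E1. It stood at 1011, 947 and 923 normalised counts in WT, 1298, 1415 and 1381 in CRISPR Control, 596, 756 and 721 in TIMP1 KO 1, and 785, 722 and 674 in TIMP1 KO 2. Every knockout library was below every library of WT, and WT in turn below CRISPR Control, while the clones overlapped each other. Against WT, CCNE1 fell by 0.48 in TIMP1 KO 1 (SE 0.09, adjusted p = 0.000588) and by 0.40 in TIMP1 KO 2 (SE 0.09, adjusted p = 0.00143). Against CRISPR Control, itself 0.51 above WT (adjusted p = 0.000191), the falls were larger at 0.99 (adjusted p = 3.48e-08) and 0.91 (adjusted p = 8.94e-08). The clones differed from each other by 0.08 (95% interval -0.12 to 0.28, adjusted p = 0.552).

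CCNE2 (ENSG00000175305.18, minus strand of chromosome 8, 12 exons) encodes cyclin E2, the paralogue of cyclin E1. Its values were 519.5, 581 and 530 in WT, 480, 459 and 443 in CRISPR Control, 307, 340 and 393 in TIMP1 KO 1, and 321, 282 and 245 in TIMP1 KO 2. The order of the lines was WT, CRISPR Control, TIMP1 KO 1 and TIMP1 KO 2. CRISPR Control lay below WT without overlap, the knockout libraries were all below the others, and the clones overlapped. CCNE2 fell by 0.65 in TIMP1 KO 1 (SE 0.12, adjusted p = 0.000217) and by 0.95 in TIMP1 KO 2 (SE 0.12, adjusted p = 1.4e-06) against WT. CRISPR Control was at -0.24 against WT (95% interval -0.48 to 0.01, adjusted p = 0.0939), and TIMP1 KO 2 at -0.29 against TIMP1 KO 1 (-0.54 to -0.05, adjusted p = 0.0527). CCNE2 overlaps INTS8 on the opposite strand, a more abundant gene with 2601, 3035, 2250 and 1761 normalised counts in WT, CRISPR Control, TIMP1 KO 1 and TIMP1 KO 2, and its part in the CCNE2 counts was not tested. The ratio of CCNE1 to CCNE2 counts was 1.77 ± 0.160 in WT, 2.97 ± 0.230 in CRISPR Control, 2.00 ± 0.202 in TIMP1 KO 1 and 2.59 ± 0.151 in TIMP1 KO 2, so the balance within the class was not fixed between lines.

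CCNA2, CCNB1 and CCNB2 encode the cyclins of S phase, G2 and mitosis, and all 3 were lowest in TIMP1 KO 2. Their promoters, and that of CCNF, are shown because these 4 transcripts were lower in TIMP1 KO 2 than in WT and TIMP1 KO 1. CCNE1 and CCNE2 also fell in TIMP1 KO 2 against WT (-0.40 and -0.95). A further reason is that genes of late cell cycle are known to carry CCAAT boxes, bound by the factor NF-Y. Such genes also carry a cell cycle homology region (CHR), bound by the DREAM and MMB complexes. The sequences are from RefSeq on GRCh38.p14, on the strand of the gene, and end before any annotated transcript. Capitals mark CCAAT or its reverse complement ATTGG, and the hexamers TTTGAA or TTTAAA taken as the CHR, searched on both strands.

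CCNA2, chr4:121823884-121824133, minus strand: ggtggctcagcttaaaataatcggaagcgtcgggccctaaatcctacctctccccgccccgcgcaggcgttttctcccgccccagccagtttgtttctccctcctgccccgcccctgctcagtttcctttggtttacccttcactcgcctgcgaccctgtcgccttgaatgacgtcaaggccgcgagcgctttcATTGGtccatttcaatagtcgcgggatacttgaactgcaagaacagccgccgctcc
CCNB1, chr5:69166900-69167134, plus strand: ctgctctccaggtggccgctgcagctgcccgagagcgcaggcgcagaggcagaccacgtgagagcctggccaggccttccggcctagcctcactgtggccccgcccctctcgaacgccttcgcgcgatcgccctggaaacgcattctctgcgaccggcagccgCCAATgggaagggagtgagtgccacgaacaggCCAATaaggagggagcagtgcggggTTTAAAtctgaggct
CCNB2, chr15:59104896-59105125, plus strand: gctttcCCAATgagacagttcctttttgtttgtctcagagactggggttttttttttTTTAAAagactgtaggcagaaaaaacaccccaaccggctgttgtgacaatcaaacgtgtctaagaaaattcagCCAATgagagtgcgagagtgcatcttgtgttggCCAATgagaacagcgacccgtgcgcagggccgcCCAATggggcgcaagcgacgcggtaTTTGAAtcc
CCNF, chr16:2429197-2429393, plus strand: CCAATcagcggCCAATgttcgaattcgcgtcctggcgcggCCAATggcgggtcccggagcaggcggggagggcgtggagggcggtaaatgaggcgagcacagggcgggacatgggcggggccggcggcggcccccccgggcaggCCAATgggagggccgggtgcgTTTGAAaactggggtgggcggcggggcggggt

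In the 250 bases before the RefSeq start site, CCNB2 held 4 CCAAT boxes and 2 CHR hexamers, CCNF 4 and 1, CCNB1 2 and 1, and CCNA2 1 and 0. Only TTTGAA and TTTAAA were searched, so a count of 0 does not show that a promoter lacks a CHR. In CCNB1 and CCNB2 the boxes nearest the start began at -55 and -54, the next at -87 in both, and a CHR hexamer followed at -30 and -29. In CCNF the boxes began at -250, -239, -210 and -106 and the hexamer at -85. Of 35116 RefSeq promoters of the same length, 21.9% held a CHR hexamer, 9.53% at least 2 CCAAT boxes, and 2.12% both. The 4 promoters above were chosen with such motifs known for late cell cycle genes, so these shares are a reference and not a test. The letters TTTNNCGC, searched on both strands as an E2F site and not in capitals above, occurred once among these 4, in CCNF at -170, and in 5.92% of all promoters. CCNE1, a G1/S cyclin, had a CHR hexamer at -28 and 0 CCAAT boxes. CCND3 had 3 RefSeq start sites with 0, 1 and 1 CCAAT boxes and 0 CHR hexamers. Promoters of CCND1, CCND2 and CCNE2 were not analysed here.

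CCNA2 (ENSG00000145386.11, chr4:121816444-121823883, minus strand, 8 exons) encodes cyclin A2, the partner of CDK2 in DNA replication. It was measured at 3293, 3491 and 3311 in WT, 3245, 3408 and 3548 in CRISPR Control, 3113, 3029 and 3170 in TIMP1 KO 1 and 1682, 1729 and 1641 in TIMP1 KO 2. The 9 libraries of the other lines spanned a narrow range and TIMP1 KO 2 sat far below it. The log2 fold change against WT was -1.0 in TIMP1 KO 2 (SE 0.07, adjusted p = 2.99e-10) and -0.12 in TIMP1 KO 1 (95% interval -0.25 to 0.02, adjusted p = 0.179). Although the latter missed the threshold, the 3 libraries of TIMP1 KO 1 were all below the WT and CRISPR Control libraries. EXOSC9, which overlaps CCNA2 exons on the opposite strand, averaged 997, 1131, 821 and 719 in WT, CRISPR Control, TIMP1 KO 1 and TIMP1 KO 2.

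CCNB1 (ENSG00000134057.15, chr5:69167135-69178245, plus strand, 9 exons) encodes cyclin B1, the activator of CDK1 at entry into mitosis. The counts were 9041, 9014 and 8555 in WT, 11931, 13860 and 12151 in CRISPR Control, 8607, 8671 and 8364 in TIMP1 KO 1, and 5520, 5490 and 5706 in TIMP1 KO 2. CRISPR Control was high and TIMP1 KO 2 low, each without overlap, and WT and TIMP1 KO 1 overlapped. CCNB1 fell by 0.67 in TIMP1 KO 2 against WT (adjusted p = 1.16e-07) and was at -0.05 in TIMP1 KO 1 (95% interval -0.20 to 0.09, adjusted p = 0.579). CRISPR Control was 0.51 above WT (adjusted p = 4.45e-06).

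CCNB2 (ENSG00000157456.8, chr15:59105126-59125045, plus strand, 9 exons in the main transcript) encodes cyclin B2, the B-type cyclin found at the Golgi apparatus. WT gave 3259, 3006 and 3092, CRISPR Control 3492, 3819 and 3398, TIMP1 KO 1 2764, 3049 and 3177, and TIMP1 KO 2 1547, 1484 and 1451. TIMP1 KO 2 stood apart below the other lines, and TIMP1 KO 1 overlapped WT. The fold change against WT was -1.06 in TIMP1 KO 2 (adjusted p = 6.8e-10) and -0.06 in TIMP1 KO 1 (95% interval -0.21 to 0.09, adjusted p = 0.569). CRISPR Control was 0.19 above WT (adjusted p = 0.0332), and this call was lost without WT replicate 2 or 3 or CRISPR Control replicate 2 (adjusted p 0.0876 to 0.122), in the edgeR fit (adjusted p = 0.0556), without the filter on low genes (0.0649), with only the lines compared in the fit (0.0775) and when libraries were scaled to equal totals (adjusted p = 0.0588). The ratio of CCNB1 to CCNB2 counts was 2.85 ± 0.132 in WT, 3.54 ± 0.111 in CRISPR Control, 2.86 ± 0.241 in TIMP1 KO 1 and 3.73 ± 0.184 in TIMP1 KO 2.

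The difference between the clones was tested for each of these genes. TIMP1 KO 2 was below TIMP1 KO 1 by 0.88 for CCNA2 (adjusted p = 4.44e-09), by 0.62 for CCNB1 (adjusted p = 8e-07) and by 1.00 for CCNB2 (adjusted p = 3.93e-09). Over all 9 cyclins, 4 were lower in TIMP1 KO 2 than in TIMP1 KO 1 and 2 (CCND2 and CCND3) were higher, beside 20.1% and 18.1% of all tested genes. With equal library totals these calls over all genes were 3896 higher and 2047 lower, in place of 2890 and 3210. For the S phase and mitotic cyclins the gap between the clones was nearly that of TIMP1 KO 2 from WT, and for CCNE1 and CCND1 it was within 0.08.

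CCNF (ENSG00000162063.13, chr16:2429394-2458854, plus strand, 17 exons) encodes cyclin F, which directs proteins such as the ribonucleotide reductase subunit RRM2 and the centriole protein CCP110 to degradation. It had 2552, 2366 and 2543 normalised counts in WT, 1544, 1569 and 1926 in CRISPR Control, 1939, 1716 and 1965 in TIMP1 KO 1 and 1177, 1085 and 1142 in TIMP1 KO 2. WT was the high line, CRISPR Control and TIMP1 KO 1 overlapped, and TIMP1 KO 2 was the low line. CCNF was the member that fell in CRISPR Control, by 0.57 against WT (SE 0.09, adjusted p = 2.39e-05), and it fell by 0.41 in TIMP1 KO 1 (adjusted p = 0.00122) and by 1.13 in TIMP1 KO 2 (adjusted p = 3.31e-09). TIMP1 KO 1 was at 0.16 against CRISPR Control (95% interval -0.02 to 0.35, adjusted p = 0.117), a difference that passed without CRISPR Control replicate 3 (0.26, adjusted p = 0.00973). TIMP1 KO 2 was 0.72 below TIMP1 KO 1 (adjusted p = 3.03e-06).

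**Figure D2:**
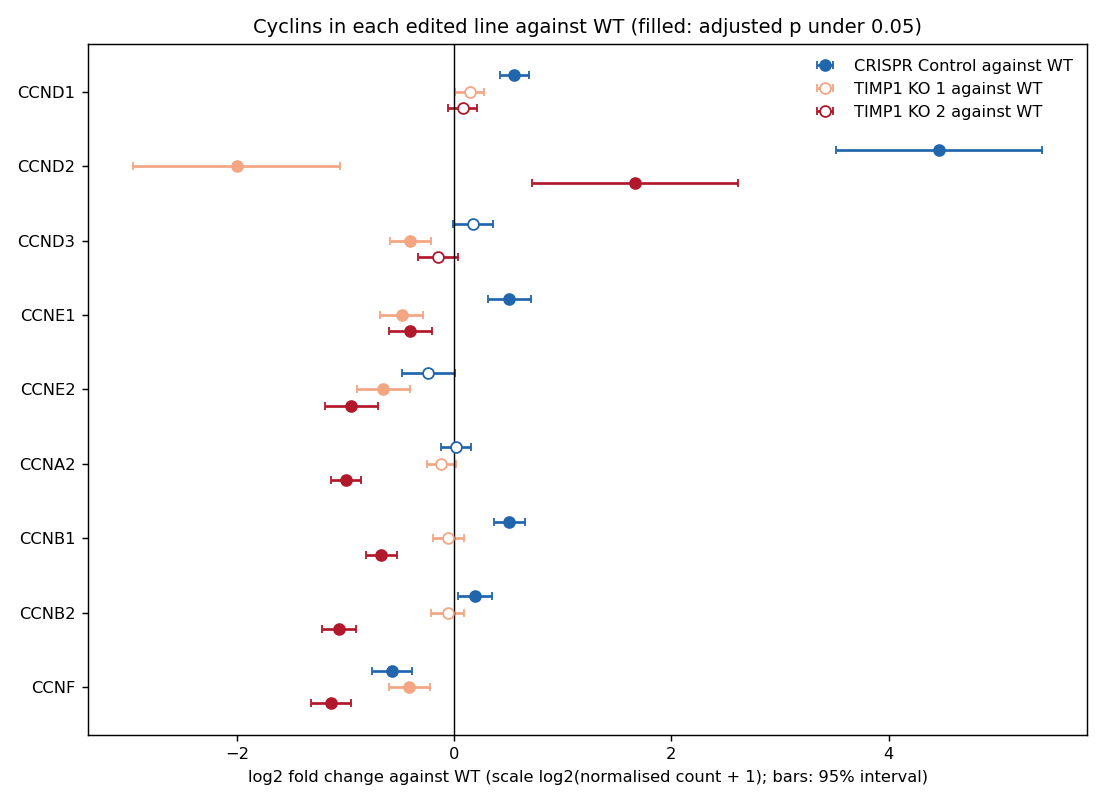
Log2 fold change of each cyclin in CRISPR Control, TIMP1 KO 1 and TIMP1 KO 2 against WT on the log2(normalised count + 1) scale, with 95% intervals; filled points passed the limma test. CCNE1 and CCNE2 lie left of 0 in both knockout clones, CCNA2, CCNB1 and CCNB2 in TIMP1 KO 2 at -1.0, -0.67 and -1.06, and CCND2 spreads from -2.0 to 4.46.

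CRISPR Control, the edited line with intact protein, differed from WT in 6 of the 9 cyclins. CCND1, CCND2, CCNE1, CCNB1 and CCNB2 were higher in it and CCNF was lower, where 27.2% of all tested genes were called higher and 26.3% lower. The comparisons with CRISPR Control called more cyclins than those with WT: 7 were lower in TIMP1 KO 1 and 0 higher (31.3% and 31.7% of all genes), and all 9 were lower in TIMP1 KO 2 and 0 higher (34.4% and 33.3%). The median log2 fold change over the 9 was 0.19 for CRISPR Control against WT, -0.42 for TIMP1 KO 1 and -0.91 for TIMP1 KO 2 against CRISPR Control.

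When the mean of both knockout clones (the deficient lines) was set against the mean of WT and CRISPR Control (the competent lines), all 9 cyclins were lower and 0 higher, beside 33% and 32.9% of all tested genes. The log2 fold changes were -0.69 for CCNE1, -0.68 for CCNE2, -0.66 for CCNB2, -0.62 for CCNB1 and -0.56 for CCNA2. They were -0.48 for CCNF, -0.36 for CCND3 and -2.40 for CCND2. CCNA2, CCNB1 and CCNB2 were not called in TIMP1 KO 1 against WT (-0.12, -0.05 and -0.06), nor CCND3 in TIMP1 KO 2 (-0.15). Of the first 3, CRISPR Control was called above WT for CCNB1 and CCNB2 (0.51 and 0.19) and not for CCNA2 (0.01). The value of CCND2 was -1.52 with a pseudocount of 10, and it averages lines on both sides of WT, since CCND2 was called higher than WT in CRISPR Control and TIMP1 KO 2 and lower in TIMP1 KO 1. For CCND1 the value was -0.17 (adjusted p = 0.00372), although the mean of each clone was above that of WT without passing the test, and it was not called after quantile normalization (-0.08, adjusted p = 0.149). The 6 deficient libraries lay wholly below the 6 competent ones for CCNE1, CCNE2 and CCNA2, which is 3 of the 9 members, where 12.4% of all tested genes had such groups. The lowest competent and the highest deficient library stood at 923 and 785 for CCNE1, at 443 and 393 for CCNE2, and at 3245 and 3170 for CCNA2. A further condition was a change from WT in both clones in the same direction and no call between CRISPR Control and WT. It was met by 1 member, CCNE2, and by 5.18% of all tested genes in the lower direction. For CCNE2 the absent call was at -0.24 (limma adjusted p = 0.0939). All its CRISPR Control libraries (highest 480) were nevertheless below those of WT (lowest 519.5).

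Levels were compared between genes per kilobase of the main annotated transcript. CCNB1 was the most abundant of the 9 cyclins in every line and CCND1 the next, while CCNE2 and CCND2 were the eighth and ninth. In WT the values were 4372 ± 135 normalised counts per kb for CCNB1, 2346 ± 129 for CCND1, 2096 ± 86.4 for CCNB2, 1236 ± 50.6 for CCND3, 1224 ± 39.9 for CCNA2, 588 ± 24.8 for CCNF, 491 ± 23.2 for CCNE1, 203 ± 12.3 for CCNE2 and 1.18 ± 0.316 for CCND2. CCND3 and CCNA2 were closer than their spread, but with the length of all exons of a gene CCND3 was at 435 and CCNA2 at 1224 in WT, where CCND3 stood at rank 5. The order of the less abundant members changed between lines: in TIMP1 KO 2, CCND3 was at 1116 ± 105, CCNB2 at 1004 ± 32.6 and CCNA2 at 613 ± 16.1. With the length of all exons, CCND3 (393) was below CCNB2 (543) in that line.

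Summed over the 9 genes, the transcripts amounted to 12558 ± 102 normalised counts per kb in WT, 16006 ± 635 in CRISPR Control, 11809 ± 94.4 in TIMP1 KO 1 and 8705 ± 95.2 in TIMP1 KO 2. The D-type sum was 3583 ± 117, 4868 ± 198, 3527 ± 108 and 3596 ± 87.2 in the same order, and so was nearly level in WT and both clones. The B-type sum was 6468 ± 176, 8632 ± 663, 6226 ± 115 and 3750 ± 42.6, with TIMP1 KO 2 as the low line. For the E-type the sums were 695 ± 21.5, 871 ± 26.0, 483 ± 54.9 and 478 ± 42.6, with both clones low. CCND1 therefore made up 18.7% ± 1.07 of all cyclin transcript per kb in WT and 28.4% ± 0.487 in TIMP1 KO 2, CCNB1 34.8% ± 0.797 and 31.5% ± 0.422, and CCNB2 16.7% ± 0.684 and 11.5% ± 0.409. Within the D-type sum CCND1 contributed 65.4% in WT, 70.8% in CRISPR Control, 73.4% in TIMP1 KO 1 and 68.9% in TIMP1 KO 2. CCND2 contributed at most 0.591%. These shares depend on the length used: with all exons of a gene, CCND1 was at 82.7%, 85.6%, 87.5% and 84.8% in the same order.

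**Figure D3:**
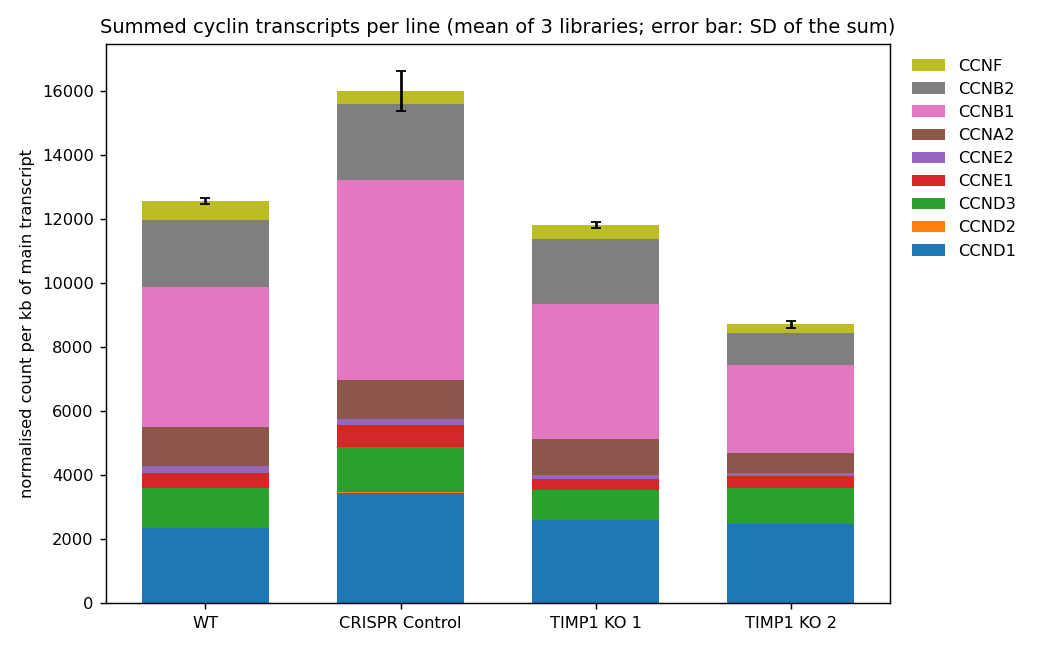
Normalised counts per kb of main transcript, stacked over the 9 cyclins for each line (mean of 3 libraries, linear axis from 0; the error bar is the SD of the sum). The stack falls from 12558 in WT to 8705 in TIMP1 KO 2, mostly in the CCNB1, CCNB2 and CCNA2 layers, and rises to 16006 in CRISPR Control.

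Likeness between genes was described by the 4 line means, each centred on their own average, as the root mean square of the differences in log2. The closest members were CCNA2 and CCNB2 (0.0892), followed by CCNB1 and CCNB2 (0.177) and CCNA2 and CCNB1 (0.200). CCND2 was at least 2.07 from each other member. Over all genes with a mean of at least 100, the nearest to CCNA2 were BUB1 (0.0368), a kinase of the spindle checkpoint, and SOX4 (0.0430), a transcription factor. For CCNB2 they were PIM2 (0.0357), a survival kinase, and PDGFB (0.0414), a growth factor chain. For CCNF they were TIMELESS (0.0254), a protein of the replication fork, and RECQL4 (0.0537), a DNA helicase. Next to CCNB1 came RPL7 (0.0123), a ribosomal protein gene with many processed copies in the genome, and a gene listed by its identifier alone (0.0227). CCND2 was nearest to CPED1 (0.163), with means of 12.2, 339, 3.63 and 49.1 in WT, CRISPR Control, TIMP1 KO 1 and TIMP1 KO 2, and to DPYSL3 (0.549), a cytoskeletal phosphoprotein. With 4 line means these are descriptions over few points, and the line means of CCND1, CCND3, CCNE1 and CCNE2 spanned under 1 and were not matched.

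Genes that act on cyclins were taken from a list of 54, of which 52 were tested. This list too was chosen with earlier results of these data known. The inhibitors CDKN2A and CDKN2B, which block CDK4 and CDK6, had 0 reads in all 12 libraries, which allows up to 3 reads in each. In TIMP1 KO 1 against WT, 24 were lower and 8 higher (median log2 fold change -0.19). In TIMP1 KO 2, 35 were lower and 6 higher (median -0.49), and against TIMP1 KO 1 33 were lower and 1 higher (median -0.34). CRISPR Control against WT had 9 lower and 12 higher (median 0.05). Against CRISPR Control, TIMP1 KO 1 had 27 lower and 8 higher and TIMP1 KO 2 35 lower and 6 higher, and between deficient and competent lines 33 were lower and 7 higher (median -0.46). The medians over all tested genes were between -0.01 and 0.01 in these comparisons, and the shares of all genes called are those given above.

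Of the 4 listed kinases that cyclins activate, 3 fell in TIMP1 KO 2 against WT, where 27.9% of all tested genes were called lower. CDK1, the partner of the A- and B-type cyclins, averaged 5210 ± 604 in WT, 5877 ± 777 in CRISPR Control, 4546 ± 23.8 in TIMP1 KO 1 and 2506 ± 150 in TIMP1 KO 2. As with CCNB1, its change against WT was called in TIMP1 KO 2 (-1.05, adjusted p = 1.75e-08) and not in TIMP1 KO 1 (-0.19, adjusted p = 0.118). CDK2, the partner of the E-type cyclins, fell in both clones, by 0.50 in TIMP1 KO 1 (adjusted p = 4.74e-06) and by 0.90 in TIMP1 KO 2 (adjusted p = 6.6e-10). CDK4 fell by 0.49 (adjusted p = 0.000282) and 0.52 (adjusted p = 7.23e-05). CDK6 rose by 0.27 in TIMP1 KO 1 (adjusted p = 0.0413) and was at -0.06 in TIMP1 KO 2 (adjusted p = 0.605), and it fell by 0.66 in CRISPR Control (adjusted p = 1.91e-05).

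Of the 5 CDK inhibitors tested, 3 rose and 0 fell in TIMP1 KO 1 against WT, and 2 rose and 1 fell in TIMP1 KO 2. Among all tested genes 18% were higher and 17.5% lower in TIMP1 KO 1, and 27.1% and 27.9% in TIMP1 KO 2. The median log2 fold change over the 5 was 0.37 and 0.15 in these comparisons. Between deficient and competent lines it was -0.01, so no rise of the group as a whole was shown there. CDKN1A, which encodes p21, the inhibitor induced by p53 and other signals, was the listed gene with the highest change between deficient and competent lines (1.36). Averages were 3420 ± 15.9 in TIMP1 KO 1 and 3283 ± 172 in TIMP1 KO 2, as against 1140 ± 55.0 in WT and 1494 ± 133 in CRISPR Control. The clones differed from each other by -0.06 (adjusted p = 0.571), and both were above the other lines, by 1.58 (adjusted p = 8.81e-12) and 1.52 (adjusted p = 7.17e-12) against WT. CDKN1B, which encodes p27, rose by 0.37 (adjusted p = 0.00175) and 0.58 (adjusted p = 1.06e-05). CDC25A, the phosphatase that activates CDK2 for S phase, was the lowest of the list at -1.46 between deficient and competent lines, with 969 ± 18.7 in WT, 1284 ± 73.7 in CRISPR Control, 410 ± 17.3 in TIMP1 KO 1 and 401 ± 54.3 in TIMP1 KO 2. For CDC25A the clones differed by -0.04 (adjusted p = 0.785).

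Among the transcription factors of cyclin genes, the G1/S group of E2F and retinoblastoma family genes had 7 of 13 lower and 1 higher in TIMP1 KO 1, and 9 lower and 1 higher in TIMP1 KO 2 against WT. The shares of all tested genes were 17.5% lower and 18% higher in TIMP1 KO 1, and 27.9% and 27.1% in TIMP1 KO 2. E2F1, an activator of the E-type cyclin genes, averaged 5517 ± 358 in WT, 4383 ± 443 in CRISPR Control, 2874 ± 235 in TIMP1 KO 1 and 2094 ± 176 in TIMP1 KO 2, with changes of -0.94 (adjusted p = 1.12e-07) and -1.40 (adjusted p = 2.01e-10) against WT in the clones. In the G2/M group, which includes subunits of NF-Y and MMB, 4 of 10 were lower in TIMP1 KO 1 and 8 in TIMP1 KO 2, and 0 were higher in either. FOXM1, an activator of mitotic genes, fell by 0.59 (adjusted p = 7.18e-05) and 1.24 (adjusted p = 2.09e-09). MYBL2, the Myb subunit of MMB, fell by 0.52 (adjusted p = 3.59e-05) and 1.22 (adjusted p = 2.53e-10). Whether the levels of these 2 factors bear on those of CCNA2, CCNB1 and CCNB2 was not tested.

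Genes of cyclin degradation were 5 of 8 lower and 1 higher in TIMP1 KO 1 and 6 lower and 1 higher in TIMP1 KO 2. The shares of all tested genes were 17.5% lower and 18% higher in TIMP1 KO 1, and 27.9% and 27.1% in TIMP1 KO 2. SKP2, a receptor of ubiquitin ligase for cyclin E and p27, fell by 0.52 (adjusted p = 0.000156) and 0.95 (adjusted p = 4.8e-08). CDC20, which directs the B-type cyclins to the anaphase-promoting complex, fell by 0.43 (adjusted p = 0.000174) and 1.18 (adjusted p = 1.91e-10). FBXW7, the other receptor for cyclin E, was at -0.18 (adjusted p = 0.201) and -0.20 (adjusted p = 0.124). RRM2, the reductase subunit that cyclin F removes, had means of 15900.5 ± 115 in WT, 17600.4 ± 733 in CRISPR Control, 11493 ± 435 in TIMP1 KO 1 and 8197 ± 340 in TIMP1 KO 2, and so was lower, as CCNF was, in both clones (-0.47, adjusted p = 1.24e-05, and -0.96, adjusted p = 4.11e-10).

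**Figure D4:**
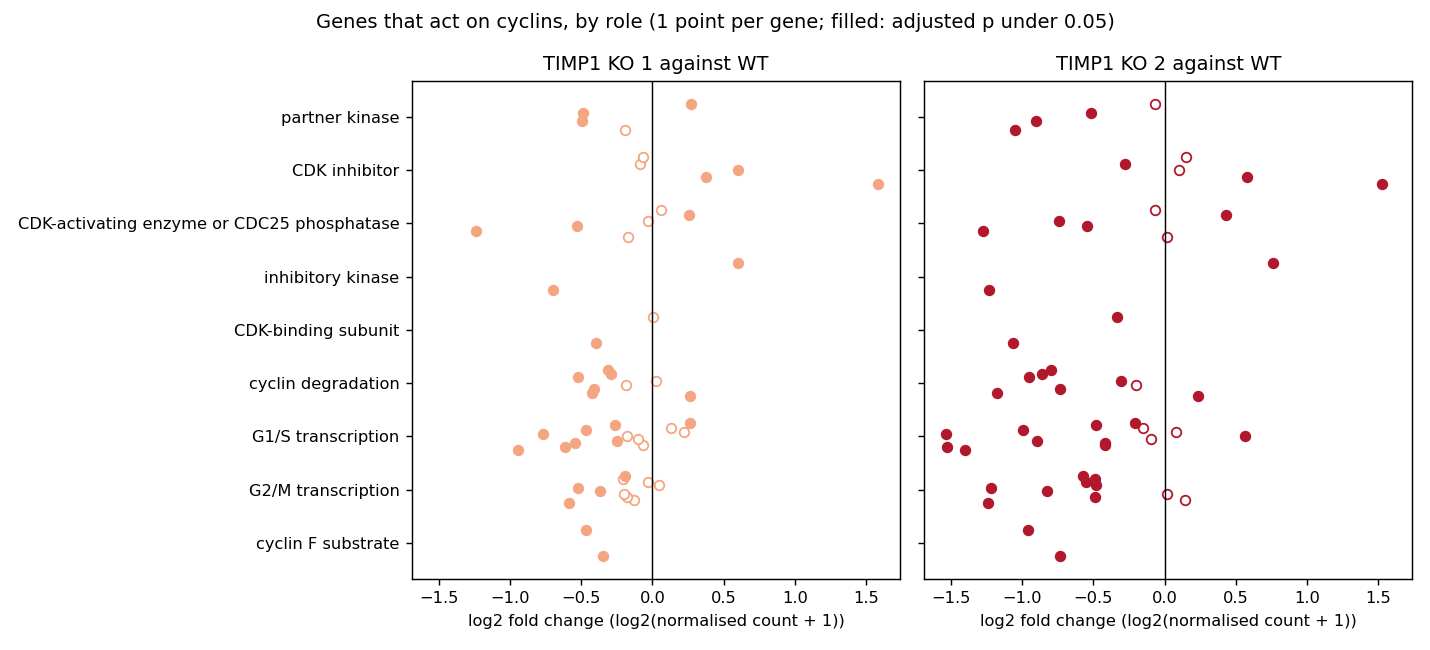
Log2 fold changes against WT of the 52 tested genes that act on cyclins, 1 point per gene, by role, in TIMP1 KO 1 and TIMP1 KO 2; filled points passed the limma test. Points left of 0 number more and reach further in TIMP1 KO 2 (35 called lower) than in TIMP1 KO 1 (24), and the point far to the right among the CDK inhibitors is CDKN1A at 1.58 and 1.52.

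Of 20 listed cyclins outside the 9, 18 were tested. Between deficient and competent lines 8 of these were higher and 4 lower, beside 32.9% and 33% of all tested genes, with a median of 0.15. The highest were CCNO (1.56), known from multiciliated cells, and CCNG2 (1.55), a cyclin of cells that leave the cycle. CCNG2 averaged 971 ± 78.1 in WT, 310.5 ± 9.25 in CRISPR Control, 1392 ± 121 in TIMP1 KO 1 and 1876 ± 69.0 in TIMP1 KO 2. It rose in both clones against WT, by 0.52 (adjusted p = 0.00011) and 0.95 (adjusted p = 2.72e-08), and fell by 1.64 in CRISPR Control (adjusted p = 1.25e-11). The lowest were CCNYL1 (-1.31), a relative of cyclin Y, and CCNJ (-0.80), a cyclin of little known function. Against WT the list had 5 lower and 4 higher in TIMP1 KO 1 (17.5% and 18% of all genes), 5 lower and 6 higher in TIMP1 KO 2 (27.9% and 27.1%), and 7 lower and 4 higher in CRISPR Control (26.3% and 27.2%).

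The 5 tested genes on each side of a cyclin on its chromosome gave a local reference. In TIMP1 KO 2 against WT the median log2 fold change of the 10 neighbours was 0.15 for CCNA2, 0.19 for CCNB1, -0.14 for CCNB2 and -0.12 for CCNF, where the cyclins themselves were at -1.0, -0.67, -1.06 and -1.13. The lowest neighbour reached -0.87 next to CCNA2, -0.75 next to CCNB1, -0.47 next to CCNB2 and -0.92 next to CCNF, so that CCNA2, CCNB2 and CCNF were below all their neighbours and CCNB1 was not. For CCNE1 the neighbours had medians of 0.03 and 0.19 in TIMP1 KO 1 and TIMP1 KO 2, and CCNE1 was below all of them in both. CCNE2 was not: its neighbours had medians of 0.06 and -0.23 and reached down to -2.75 and -1.80, below the -0.65 and -0.95 of CCNE2. Next to CCND2 the median in CRISPR Control against WT was 0.12 and the highest neighbour at 1.08, well under the 4.46 of CCND2.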

How the data were processed

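Groups and replicate numbers came from the sample titles. The authors used Cutadapt for trimming, STAR for mapping to GRCh38, featureCounts for counting and DESeq2 size factors for scaling. The deposited values are this signal, a normalised count per gene and library, without pooling. Strand setting and annotation release are not given in the sources used here. Such scaling holds the typical gene level between libraries. Whole reads were recovered from the steps of the values (100% whole within 0.01 reads), which gave the depth and a floor of 3 reads. 1 blank line and 4 columns of line means were not used. Of the identifiers, 99.1% matched gene names, and 97.6% with their version matched GENCODE 44, whose coordinates are used.

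limma 3.58.1 (R 4.3.3) was fitted to log2(normalised count + 1) of 15987 genes (99.9% of reads) in all 12 libraries, with eBayes and trend, two-sided, with Benjamini-Hochberg adjustment over all tested genes. It was tested on simulated data. edgeR 4.0.16 and DESeq2 1.42.0 on recovered reads, other pseudocounts, filters and scalings, a replicate block and leaving out each library were alternatives. The 9 members and the gene lists were chosen with earlier results of these data known. Named genes were all members, 13 set regulators, the extreme member of the regulator list in each direction, the 2 highest and 2 lowest other cyclins, the 2 genes most like each member with a range of at least 1, and TIMP1.

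Replicate numbers did not pair the libraries: deviations of same-numbered libraries correlated between -0.129 and 0.160, and 2 of 18 pairs exceeded 0.1. Libraries of a line differed by more than sampling noise, so that none was counted as a duplicate.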

Additional observations from a re-analysis of the deposited data

Results flagged for a closer look

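For 6 cyclins the knockout clones differed from each other in their change from WT, by the limma test of TIMP1 KO 2 against TIMP1 KO 1 over all tested genes. CCNB2 was at -1.0, CCNA2 at -0.88, CCNF at -0.72 and CCNB1 at -0.62 (adjusted p of 3.93e-09, 4.44e-09, 3.03e-06 and 8e-07), with all 3 libraries of TIMP1 KO 2 below all 3 of TIMP1 KO 1 for each. CCND2 was at 3.67 (adjusted p = 3.46e-06), from 94 reads in TIMP1 KO 2 and 5 in TIMP1 KO 1, and at 1.66 with a pseudocount of 10 in place of 1. CCND3 was at 0.25 (adjusted p = 0.0314), a call lost without the filter on low genes and without any 1 of 4 libraries of the clones (adjusted p 0.0583 to 0.155). CCNE1, CCNE2 and CCND1 did not pass this test, and TIMP1 itself was lower by 0.46 in TIMP1 KO 2 (adjusted p = 0.000398). As each clone is 1 line, the cause of these differences was not tested.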

How the results depend on the processing

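Over 22 alternatives, every count of cyclins and regulators called stayed within 1.5 times its value, and 51 of the 63 log2 fold changes of the cyclins (9 genes in 7 comparisons) kept direction and side of the threshold throughout. Directions turned only for values near 0: CCND1 in TIMP1 KO 2 against TIMP1 KO 1 was 0.038 with equal library totals and 0.041 after quantile normalization, CCNE1 in the same comparison ranged from -0.024 to 0.15 when libraries were left out, and CCNA2 in CRISPR Control against WT was -0.0052 with equal library totals, -0.0048 in edgeR and -0.017 to 0.048 when libraries were left out. CCND1 in TIMP1 KO 2 against WT passed the test with equal totals (0.17, adjusted p = 0.0308) and after quantile normalization (0.21, adjusted p = 0.011), and the cause was not tested. CCND1 in TIMP1 KO 1 against WT passed with only the lines compared in the fit (0.14, adjusted p = 0.0444). CCNE2 in TIMP1 KO 2 against TIMP1 KO 1 passed with a minimum mean of 50 (adjusted p = 0.0457), after quantile normalization (-0.40, adjusted p = 0.0121), and without replicate 1 of CRISPR Control, TIMP1 KO 1 or TIMP1 KO 2 (adjusted p 0.0198 to 0.0484). Without CRISPR Control replicate 1, CCND3 passed in CRISPR Control against WT (0.25, adjusted p = 0.0252) and CCNA2 in TIMP1 KO 1 against CRISPR Control (-0.16, adjusted p = 0.0425). Equal totals moved the median of all genes to 0.11 in TIMP1 KO 2 against CRISPR Control, and the split of calls in TIMP1 KO 2 against WT to 5245 higher and 3500 lower, from 4330 and 4461. The replicate block, which does not reflect a known pairing, left 5, 7 and 6 cyclins called in TIMP1 KO 1, TIMP1 KO 2 and CRISPR Control against WT, as without it. Depth limits CCND2 in TIMP1 KO 1 (5 reads in 3 libraries) and no other cyclin.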
